A study of Drosophila melanogaster with 4 samples.

Results

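The genes described here encode the respiratory chain of the fly. They were taken by FlyBase symbol: every gene whose symbol starts with ND-, COX, UQCR-, ATPsyn or Sdh, which gave 88 nuclear genes, and the 13 protein-coding genes of the mitochondrial genome. These 101 genes stand among 17875 genes counted in the series. By complex, the nuclear genes divide into 40 of complex I, 8 of complex II, 9 of complex III, 16 of complex IV and 15 of complex V. The mitochondrial genes divide into 7 of complex I, 1 of complex III, 3 of complex IV and 2 of complex V, and complex II has none. The rule itself reads symbols only. Chain subunits whose symbols begin otherwise, among them *Cyt-c1* and *blw*, the alpha subunit of ATP synthase, fall outside it and were kept as a list of their own.

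The respiratory chain sits in the inner membrane of mitochondria. Complexes I and II take electrons from NADH and succinate, complex III passes them on through cytochrome c, and complex IV hands them to oxygen. The proton gradient that builds up drives complex V, the ATP synthase. Complexes I, III, IV and V combine subunits from both genomes, so the chain needs transcripts made in the nucleus and transcripts made inside mitochondria. Mitochondrial mRNAs are cut from long precursors and carry short poly(A) tails, which lets them be captured by the oligo(dT) primers used for single cells. In the *Drosophila* embryo mitochondria are at first supplied by the egg.

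Embryos of the wild-type Oregon R strain, whole and untreated, were dissociated into single cells and profiled in 4 droplet libraries with priming at the 3′ end of mRNA. There are 2 libraries of stages 13-16, the later part of organogenesis, and 2 of stages 10-12, the earlier part. Each library was prepared independently, and libraries rather than cells serve as replicates (n = 2 per stage). Embryos of stages 13-16 were kept at room temperature throughout, while those of stages 10-12 were aged at a cooler temperature than they were collected at, so that stage and temperature cannot be told apart. The replicates of stages 13-16 also differ in age: from its salivary gland cells the study describes replicate 1 as richer in older and replicate 2 as richer in younger embryos of that window. All groups share genotype, strain and the steps of dissociation, and no group carries a transgene or treatment.

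The libraries of stages 13-16 held 186017099 and 394684653 unique molecular identifiers (UMIs, 1 per captured RNA molecule), and those of stages 10-12 held 160693359 and 71622535. After removal of barcodes with over 25% mitochondrial UMIs, of clusters that looked like empty droplets and of likely doublets, 24084 and 22435 cells of stages 13-16 and 14290 and 8111 cells of stages 10-12 were kept. A kept cell had a median of 2293 and 7025 UMIs in the libraries of stages 13-16, against 3566.5 and 2530 in those of stages 10-12. Cells were clustered and named from tissue markers with all chain genes, all mitochondrial genes and all ribosomal protein genes left out of the clustering. In each of 7 tissues that were tested, the tissue's own markers summed to between 2.71-fold and 35.8-fold of their level in the remaining cells in every library. Because the clusters were named from these same markers, the ratios describe the naming and are no separate check of it. The smallest ratio, 2.71-fold, was that of gut endoderm in stage 10-12 replicate 2. In germ cells of stage 10-12 replicate 1 only 4 of 6 markers lay above the remaining cells, with a summed ratio of 4.17-fold. Any pair of libraries shared at most 389 barcodes, of which at most 156 were kept in both.

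Levels are CPM, a gene's UMIs relative to all UMIs of the same cells, on a scale where 10000 CPM make 1%. The nuclear set summed to 19438 and 18984 CPM in stage 13-16 replicates 1 and 2, and to 20220 and 20033 CPM in stage 10-12 replicates 1 and 2. The 4 values lie close together, between 1.90% and 2.02% of all UMIs. The mitochondrial set summed to 50182 and 32287 CPM at stages 13-16, and to 22846 and 54891 CPM at stages 10-12. Here the replicates of a stage stood further apart than the stages did, and stage 10-12 replicate 1 was the lowest of the 4 libraries.

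The mitochondrial level moved with the depth of the droplets. In kept cells of under 5000 UMIs the mitochondrial set summed to 76022 and 50658 CPM at stages 13-16 and 49221 and 76346 CPM at stages 10-12. In cells of at least 5000 UMIs it summed to 36865 and 30121 CPM at stages 13-16 and 18253 and 47014 CPM at stages 10-12, lower in every library. Droplets of the removed clusters held 65822 and 42512 CPM at stages 13-16 and 46987 and 73487 CPM at stages 10-12. In every library that was above the deep cells but below the shallow kept cells. The nuclear set showed no such shift, with 19738 and 17432 CPM in the shallow cells of stages 13-16 and 19277 and 21300 CPM in those of stages 10-12, against 19283 and 19167 CPM and 20384 and 19567 CPM in the deep cells. The limit of 25% mitochondrial UMIs also acts directly on the mitochondrial set: barcodes above it (655 and 300 of stages 13-16, 47 and 300 of stages 10-12) were left out. The part of free RNA and of broken cells in the mitochondrial values was not tested.

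Most nuclear genes were present throughout. Of the 88, 61 exceeded 10 CPM in every library and 52 exceeded 100 CPM, while 27 stayed below 10 CPM in every library and 22 of these below 1 CPM. The low genes were 24 copies, named after another subunit with an L at the end of the symbol, together with *Sdhaf3*, *ND-B8* and *ND-MNLL*. None of the copies was without a UMI in all libraries. The annotation (BDGP6.54, matched by gene identifier) gives 20 of the copies a gene they are named after, 15 of them on another chromosome arm. *COX7CL* starts 282 bases and *COX5BL* 123 bases from *COX7C* and *COX5B*, so reads that run past a gene's end or match both sequences cannot be assigned with certainty at their low counts. The members lie on all arms, 20 each on 3L and 3R, 17 on 2R, 16 on 2L, 13 on X and 2 on chromosome 4, which are *ND-49* and *ATPsynbeta*.

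Within the nuclear set the complexes kept their proportions in part. Complex I made up 28.9% and 28.9% of nuclear chain UMIs at stages 13-16 and 29.2% and 29.3% at stages 10-12. Complex V made up 31.3% and 34.8% at stages 13-16 against 29.1% and 28.0% at stages 10-12. Complex IV made up 26.0% and 22.2% at stages 13-16 and 27.4% and 28.2% at stages 10-12. Complex III made up 11.6% and 11.2% at stages 13-16 and 12.3% and 12.8% at stages 10-12. Complex II, the smallest share, made up 2.25% and 2.90% at stages 13-16 and 2.00% and 1.72% at stages 10-12. These shares are a description of 4 libraries.

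Within the mitochondrial set, complex IV (*mt:CoI*, *mt:CoII* and *mt:CoIII*, which form the catalytic core of cytochrome c oxidase) held 60.4% and 55.6% at stages 13-16 and 62.0% and 60.7% at stages 10-12. *mt:ND4L* held 0.0660% and 0.0584% at stages 13-16 and 0.0460% and 0.0313% at stages 10-12. *mt:ATPase8* held 0.0963% and 0.229% at stages 13-16 and 0.0634% and 0.0850% at stages 10-12. Both are read through a shared message: the annotation places *mt:ATPase8* (mitochondrial genome, 3907 to 4068) over the start of *mt:ATPase6* (4062 to 4736), and *mt:ND4L* (9545 to 9835) next to *mt:ND4* (8207 to 9545) on the same strand. With 3′ priming, reads of a shared message fall mostly to the gene nearest its tail, so the levels of these short genes are uncertain. How far the composition of the set varied between cell types depended on the gene. *mt:CoI* made up 15.9% to 16.9% of it over the cell types of stage 13-16 replicate 1 and 15.7% to 18.7% over those of replicate 2, against 15.6% to 17.8% and 13.8% to 17.6% in the 2 replicates of stages 10-12. *mt:ND1*, which encodes a membrane subunit of complex I, varied more, between 2.37% and 4.32% and between 2.99% and 6.29% at stages 13-16, against 1.31% to 3.18% and 1.28% to 3.27% at stages 10-12. In stage 13-16 replicate 2 *mt:ND5* ranged from 4.02% to 8.47% and *mt:ND2* from 1.02% to 2.52%, and in stage 10-12 replicate 1 *mt:ATPase8*, with few UMIs in some cell types, ranged from 0.00869% to 0.0902%.

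**Figure D1:**
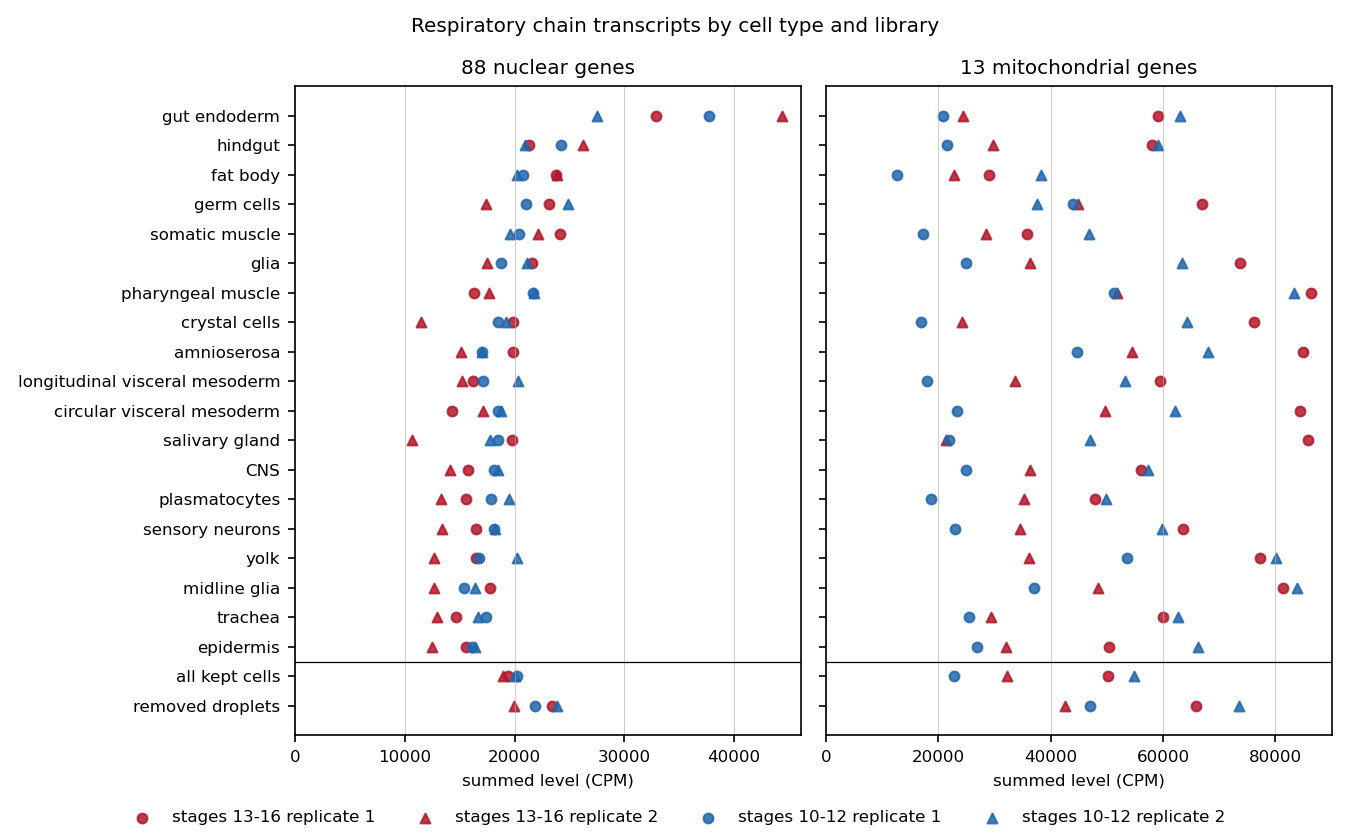
Summed level of the 88 nuclear genes (left) and the 13 mitochondrial genes (right), in CPM, for the cell types present in all 4 libraries, ordered by the mean nuclear level; red marks stages 13-16, blue stages 10-12, circles replicate 1 and triangles replicate 2. Gut endoderm stands apart in the nuclear set with 27515 to 44382 CPM, while the mitochondrial set spreads mainly by library, from 22846 to 54891 CPM over all kept cells.

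Cell types differed in the nuclear set, and among those with a name gut endoderm led it in every library. Gut endoderm, the precursor of the midgut, had 32853 and 44382 CPM at stages 13-16 and 37732 and 27515 CPM at stages 10-12. At stages 13-16 the Malpighian tubules, the excretory organs of the fly, ranked second with 26300 and 32750 CPM. Hindgut ranked between 2 and 7, germ cells between 2 and 8 (17393 to 24830 CPM), somatic muscle between 3 and 9 and fat body between 4 and 8. Some clusters that were left without a name stood above gut endoderm in at least 1 library. In 1 such cluster of each stage gut endoderm was the best scoring label, and these had 35604 CPM in stage 13-16 replicate 1 and 29571 CPM in stage 10-12 replicate 2. In stage 10-12 replicate 1 the latter had 31870 CPM, below gut endoderm. Another cluster, of 57 cells, had 44478 CPM in stage 10-12 replicate 1. All unnamed cells count among the remaining cells in the tests below. At the other end the epidermis ranked between 19 and 21 of 21 or 23 cell types, with 15598 and 12488 CPM at stages 13-16 and 16088 and 16366 CPM at stages 10-12. Trachea ranked between 16 and 21. Neighbors in the middle of the order changed places from library to library.

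In the mitochondrial set the order was another. Gut primordium, a type named at stages 10-12 only, ranked highest in both libraries of that stage, with 66094 and 112924 CPM. Pharyngeal muscle ranked between 1 and 3, with 86385 and 51863 CPM at stages 13-16 and 51192 and 83368 CPM at stages 10-12, and the amnioserosa, an extraembryonic tissue, between 1 and 5. Fat body ranked between 20 and 23, with 29010 and 22688 CPM at stages 13-16 and 12643 and 38217 CPM at stages 10-12. Somatic muscle ranked between 18 and 21. Over the 21 to 23 cell types of a library, which share its depth and free RNA, Spearman's rho between the nuclear and the mitochondrial level was -0.18 and 0.01 at stages 13-16 and -0.30 and -0.29 at stages 10-12. The mitochondrial level went with depth: rho with the median UMIs of a type was -0.32 and -0.75 at stages 13-16 and -0.74 and -0.31 at stages 10-12. The nuclear level went with the share of ribosomal protein genes, with a rho of 0.69 and 0.56 at stages 13-16 and 0.41 and 0.18 at stages 10-12. The part of depth or of the ribosomal protein share in either order was not tested.

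The question of which tissues carry more chain transcripts was put to 7 tissues, each against all remaining kept cells of the same library. UMIs were summed per library and tested over all genes with edgeR's quasi-likelihood test, in a fit of both stages that blocks on the library. Log2 differences are after TMM scaling, which sets the bulk of genes level between the sums, and a gene was called at a Benjamini-Hochberg adjusted p of at most 0.05. Because the remaining cells of a tissue contain the other tissues, the 7 comparisons are not independent. In a sum over cells, fewer molecules per cell and a shift in the kinds of cells within the tissue cannot be told apart. The median of all genes tested lay below 0 in each comparison, between -0.06 and -0.48, and the sets are given beside it. When library totals replaced TMM, that median moved to between -0.03 and -0.68, so every change is to be read relative to the bulk of genes.

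**Figure D2:**
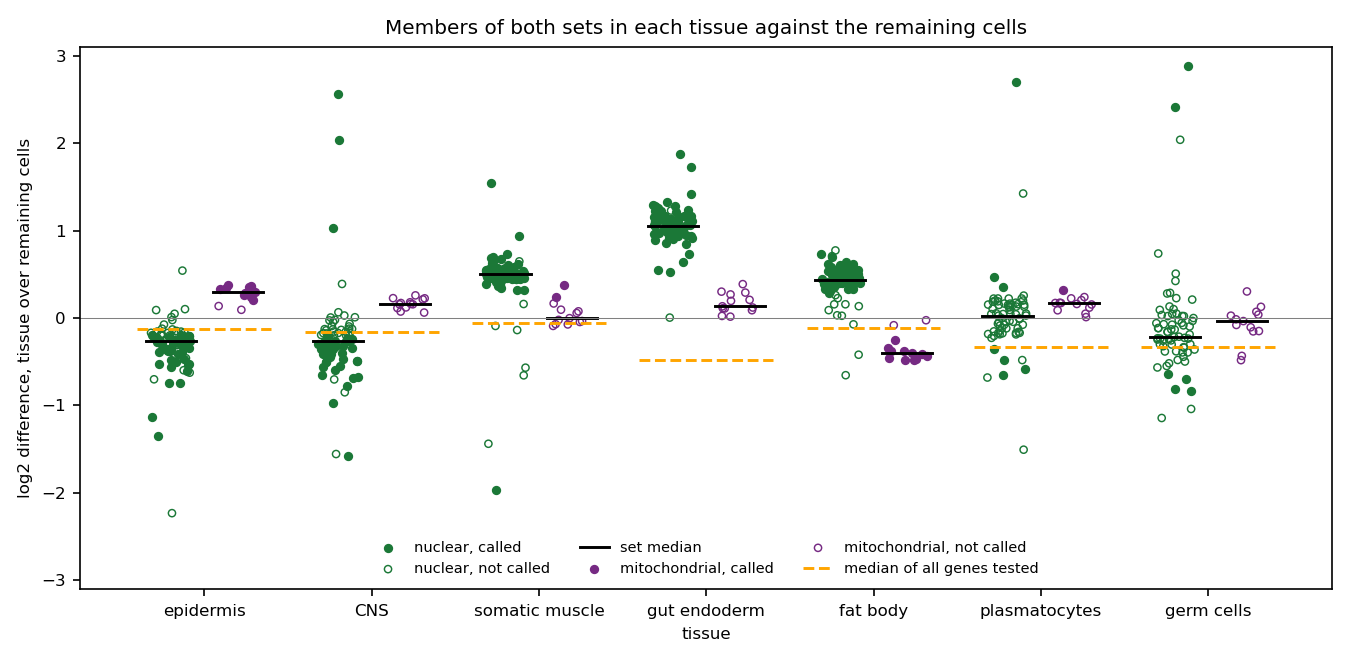
Log2 difference of each tested member between a tissue and the remaining cells of the same libraries, over both stages (4 libraries); filled points passed an adjusted p of 0.05, black bars are set medians and dashed lines the median of all genes tested. Nearly all nuclear members lie above 0 in gut endoderm (median 1.05), somatic muscle (0.51) and fat body (0.44), where the mitochondrial members lie near or below 0; 12 members beyond the axis are not drawn.

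Gut endoderm had the largest difference. Of 71 nuclear genes tested, 64 rose and none fell, against 13.2% of all genes that were called higher, and their median log2 difference was 1.05 beside -0.48 for all genes. The rise covered every complex: 33 of 34 tested genes of complex I, 5 of 5 of complex II, 6 of 6 of complex III, 8 of 13 of complex IV and 12 of 13 of complex V. The 7 tested genes that did not pass were all copies. *ATPsynC*, which encodes the ring-forming subunit c of the ATP synthase, had 3042 and 5889 CPM in gut endoderm of stages 13-16 and 2899 and 1857 CPM in that of stages 10-12, against 1466 and 1629 CPM and 1195 and 1125 CPM in the remaining cells. Every gut value exceeded every value of the remaining cells (log2 difference 1.42 ± 0.20 SE, adjusted p = 9.4e-11). The gene overlaps RNaseP:RNA and a microRNA gene on its own strand, so reads from these cannot be told apart from its own.

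Other subunits were higher in gut endoderm within each library, although between libraries the values of *SdhA*, *UQCR-C1*, *ND-MNLL* and *Sdhaf3* overlapped. *ATPsynO*, a subunit of the stalk that holds the ATP synthase in place, had 655 and 1022 CPM at stages 13-16 and 766 and 452 CPM at stages 10-12, against 320 and 329 CPM and 315 and 299 CPM in the remaining cells (1.33 ± 0.20, adjusted p = 5.36e-10). *SdhA*, the flavoprotein of succinate dehydrogenase, had 84.0 and 233 CPM at stages 13-16 and 115 and 32.9 CPM at stages 10-12, against 48.6 and 78.8 CPM and 38.5 and 27.5 CPM in the remaining cells (1.28 ± 0.22, adjusted p = 4.39e-08). *UQCR-C1*, a core protein of complex III, had 260 and 682 CPM and 323 and 139 CPM, against 158 and 231 CPM and 169 and 134 CPM. Stage 10-12 replicate 2 was the library in which gut endoderm stood least above the remaining cells for *ATPsynC*, *ATPsynO*, *SdhA* and *UQCR-C1*. *ND-MNLL*, a small accessory subunit of complex I, had 17.6 and 2.92 CPM in gut endoderm of stages 13-16 and 21.2 and 9.07 CPM in that of stages 10-12, against 6.60 and 0.589 CPM and 7.28 and 3.34 CPM in the remaining cells (1.87 ± 0.39, adjusted p = 1.31e-05). It is among the genes of low level, and in each library gut endoderm was higher. *Sdhaf3*, an assembly factor of complex II, had 18.6 and 38.7 CPM in gut endoderm of stages 13-16 and 11.0 and 6.80 CPM in that of stages 10-12, against 9.18 and 6.87 CPM and 3.26 and 4.50 CPM in the remaining cells (1.73 ± 0.33, adjusted p = 2.43e-06).

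The mitochondrial genes of gut endoderm gave no call over both stages. None of the 13 was called in either direction by edgeR, 1 was higher at an unadjusted p under 0.05 and 1 was called higher by DESeq2. In simulated data, where all genes had the same relative spread between libraries, this fit recovered 23% of genes with a log2 change of 1. The real fit called 35.3% of all genes, so the simulated recovery does not carry over to it. The median was 0.13 beside -0.48 for all genes, and it turned to -0.06 when library totals replaced TMM scaling. Taken by stage it was 0.48 at stages 13-16, with *mt:ND2* and *mt:ND5* called higher, and -0.14 at stages 10-12 with none called, and no gene was called for the difference between the stages. *mt:CoI*, which encodes the subunit that reduces oxygen, had 9482 and 3826 CPM in gut endoderm of stages 13-16 and 3320 and 8725 CPM in that of stages 10-12, against 8281 and 5868 CPM and 3905 and 8976 CPM in the remaining cells. The 2 groups overlap, and the order turned from library to library. The nuclear count stayed between 59 and 64 under every alternative that could be computed. Over all genes 1436 were called higher and 2397 lower in gut endoderm, and 1065 and 2965 with library totals. Ribosomal protein genes took 45.2% and 35.8% of UMIs in gut endoderm at stages 13-16 and 43.8% and 37.5% at stages 10-12. The part of this share in the result was not tested.

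Somatic muscle rose in nearly the whole nuclear set, by less. Of 73 nuclear genes tested, 65 rose and 1 fell, against 30.6% of all genes that were called higher and 35.6% that were called lower; the median was 0.51 beside -0.06. By complex, 33 of 35, 4 of 6, 6 of 6, 10 of 12 and 12 of 14 tested genes rose in complexes I to V. *ND-ACP*, the acyl carrier protein of complex I, had 497 and 449 CPM in muscle of stages 13-16 and 285 and 245 CPM in that of stages 10-12, against 253 and 269 CPM and 228 and 210 CPM in the remaining cells (0.94 ± 0.09, adjusted p = 2.63e-07). *SdhC*, a membrane anchor of succinate dehydrogenase, had 322 and 297 CPM and 186 and 175 CPM, against 197 and 200 CPM and 177 and 167 CPM (0.73 ± 0.09, adjusted p = 3.17e-06). For both genes muscle was higher within each library, by a wide margin at stages 13-16 and a narrow one at stages 10-12.

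For other subunits in muscle the direction rested on the scaling. *ATPsynbeta*, the catalytic subunit of the ATP synthase, had 662 and 997 CPM in muscle of stages 13-16 and 645 and 497 CPM in that of stages 10-12, against 605 and 932 CPM and 690 and 630 CPM in the remaining cells. It was called higher after TMM scaling (0.32 ± 0.09, adjusted p = 0.00482), but its difference was -0.05 with library totals, and the same turn was seen for *SdhA* (-0.05) and *ND-51* (-0.01). With library totals 30 nuclear genes were called higher and 3 lower, and over all genes 1767 were called higher and 5681 lower, beside 3369 and 3916 with TMM. Of the mitochondrial genes, *mt:ND1* (0.37) and *mt:ND2* (0.24) were called higher and none lower, with a set median of -0.00146. With library totals 10 were called lower and none higher, and without stage 13-16 replicate 2 it was 7 lower and 1 higher.

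Fat body, the tissue of metabolism and storage, combined a high nuclear with a low mitochondrial set. Of 72 nuclear genes tested, 58 rose and none fell, against 26.8% of all genes that were called higher (median 0.44 beside -0.12). Of the 13 mitochondrial genes 11 fell and none rose, against 31.9% of all genes that were called lower, with a median of -0.40. *ND-B14.5B*, an accessory subunit of complex I, had 276 and 218 CPM in fat body of stages 13-16 and 204 and 189 CPM in that of stages 10-12, against 168 and 131 CPM and 177 and 173 CPM in the remaining cells (0.73 ± 0.09, adjusted p = 1.24e-08). *ATPsynD*, a stalk subunit of the ATP synthase, had 499 and 536 CPM and 348 and 306 CPM, against 341 and 366 CPM and 310 and 277 CPM (0.64 ± 0.08, adjusted p = 8.86e-08). Complex II was the exception, with 1 of 5 tested genes called: *SdhA* (0.16 ± 0.11, adjusted p = 0.209), *SdhB* (0.03 ± 0.09, adjusted p = 0.788) and *SdhD* did not pass, while *SdhC* did (0.33 ± 0.09, adjusted p = 0.00143). With library totals 38 nuclear genes were called higher and 1 lower, and over all genes 1939 higher and 5003 lower, beside 2920 and 3479 with TMM.

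In CPM the mitochondrial genes named here lay lower in fat body in every library. After TMM scaling the median of the set lay at -0.32 and 0.00339 in replicates 1 and 2 of stages 13-16 and at -0.71 and -0.56 in those of stages 10-12, level with the remaining cells in stage 13-16 replicate 2. *mt:CoI* had 4816 and 3838 CPM in fat body of stages 13-16 and 2155 and 6684 CPM in that of stages 10-12, against 8624 and 5900 CPM and 3990 and 9099 CPM in the remaining cells (-0.42 ± 0.07, adjusted p = 1.19e-05). *mt:CoIII* had 6530 and 4247 CPM and 2839 and 8267 CPM, against 12464 and 6567 CPM and 5289 and 12438 CPM (-0.48 ± 0.07, adjusted p = 9.88e-07). The genes that were not called were *mt:ND1* (-0.03) and *mt:ND2* (-0.08), which after TMM scaling stood level with the remaining cells. Fat body cells were deeper than the average cell, with medians of 4515.5 and 13496.5 UMIs at stages 13-16 and 17626 and 8673 at stages 10-12, and in each library the cell types of greater depth tended to a lower mitochondrial level. When only cells of at least 5000 UMIs were compared, 11 mitochondrial genes were still called lower and 58 nuclear genes higher. When every cell was thinned to at most 1000 UMIs, 9 mitochondrial genes were called lower, and the nuclear count dropped to 9; without stage 13-16 replicate 2 it was 31, and without stage 10-12 replicate 1 it was 38.

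In epidermis the nuclear set lay lower and the mitochondrial set higher. Of 74 nuclear genes tested, 46 fell and none rose, against 33.6% of all genes that were called lower (median -0.26 beside -0.13), and 11 of 13 mitochondrial genes rose, against 25.4% of all genes that were called higher (median 0.30). *ATPsynC* had 911 and 827 CPM in epidermis of stages 13-16 and 750 and 738 CPM in that of stages 10-12, against 1575 and 2059 CPM and 1346 and 1213 CPM in the remaining cells (-0.74 ± 0.09, adjusted p = 0.000655). *ND-ACP* (-0.74) and the low genes *Sdhaf3* (-1.13) and *COX7AL* (-1.35) had the other large negative differences. *SdhA* had 34.9 and 54.5 CPM and 24.5 and 18.7 CPM, against 51.3 and 93.5 CPM and 43.6 and 29.3 CPM (-0.54 ± 0.07, adjusted p = 0.000869). *ATPsynbeta* (-0.17, adjusted p = 0.0578) and *COX8* (-0.20, adjusted p = 0.0698) did not pass. The nuclear count depended on the processing: it was 7 after thinning, 11 without Harmony's correction, 22 with likely doublets kept and 22 to 32 without 1 library. *mt:CoIII* had 12240 and 6605 CPM in epidermis of stages 13-16 and 6124 and 15009 CPM in that of stages 10-12, against 11944 and 6367 CPM and 4890 and 11685 CPM in the remaining cells (0.37 ± 0.06, adjusted p = 0.00192), so that the gap lay mainly in stages 10-12. The mitochondrial count was 5 with library totals, 7 after thinning and 4 to 7 without 1 library. Over all genes 2842 were called higher and 3751 lower in epidermis, and 1980 and 4736 with library totals.

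In the central nervous system (CNS) 40 of 74 tested nuclear genes fell and 3 rose, against 35.9% of all genes called lower and 29.0% called higher (median -0.27 beside -0.17). Complex I held 26 of the genes that fell and complex V held 9. *SdhA* had 27.3 and 56.1 CPM in CNS of stages 13-16 and 21.5 and 18.3 CPM in that of stages 10-12, against 52.5 and 93.0 CPM and 42.4 and 29.2 CPM in the remaining cells (-0.78 ± 0.08, adjusted p = 0.000418). *ATPsynepsilonL*, a copy of the epsilon subunit of the ATP synthase, had 3.43 and 2.09 CPM and 1.85 and 1.55 CPM, against 8.84 and 5.84 CPM and 5.37 and 7.17 CPM (-1.57 ± 0.21, adjusted p = 0.00108). For both genes the CNS was lower within every library. Of the nuclear subunits of complex IV named by role, *COX4*, *COX5A*, *COX5B*, *COX6B*, *COX7A*, *COX7C* and *COX8*, none was called. Of the mitochondrial genes none was called by edgeR and none had an unadjusted p under 0.05, while DESeq2 called 8 higher. Without stage 13-16 replicate 2, 11 were called higher; the count of nuclear genes that fell was 18 without stage 10-12 replicate 1, 23 without stage 10-12 replicate 2, 58 without stage 13-16 replicate 1, 31 without stage 13-16 replicate 2 and 20 after thinning.

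Plasmatocytes, the phagocytic blood cells, and germ cells showed few calls. In plasmatocytes 3 of 70 tested nuclear genes rose and 4 fell, against 22.8% and 31.7% of all genes (median 0.03 beside -0.33); with library totals the median was -0.26, with 31 genes lower, and over all genes 1850 were then called higher and 4803 lower, beside 2447 and 3395 with TMM. The genes that rose were *COX4L*, described with the low genes, *ND-B18* (0.47) and *ND-AGGG* (0.35), which encode accessory subunits of complex I and in CPM lay above the remaining cells at stages 10-12 only. *SdhD*, a membrane anchor of complex II, had 44.7 and 43.1 CPM in plasmatocytes of stages 13-16 and 33.0 and 30.3 CPM in those of stages 10-12, against 73.7 and 96.3 CPM and 68.0 and 56.0 CPM in the remaining cells (-0.66 ± 0.13, adjusted p = 0.000259). *SdhA* (-0.58), *ATPsynC* (-0.48) and *ND-23* (-0.36), the last of them named after its value was seen, were the others that fell. Of the mitochondrial genes 1 was called, *mt:ND1* (0.33 ± 0.13, adjusted p = 0.0476), and it was called in no fit that left out 1 library.

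In germ cells 3 of 73 tested nuclear genes rose and 4 fell, against 14.0% and 17.1% of all genes (median -0.21 beside -0.33, and 0.09 with library totals), although in CPM their summed nuclear level was among the higher ones. *UQCR-C1* (-0.70 ± 0.23, adjusted p = 0.00946), *UQCR-C2* (-0.81), *SdhC* (-0.83) and *ND-B17.2* (-0.64) fell. *UQCR-C2*, a core protein of complex III, had 176 and 176 CPM in germ cells of stages 13-16 and 129 and 86.3 CPM in those of stages 10-12, against 189 and 294 CPM and 177 and 146 CPM in the remaining cells. No mitochondrial gene was called by edgeR, none had an unadjusted p under 0.05 and DESeq2 called none. The germ cell sums of stages 10-12 rest on 124 and 65 cells, and without stage 10-12 replicate 1, the library with 4 of 6 germ cell markers above the remaining cells, 10 mitochondrial genes were called lower and 15 nuclear genes lower. With likely doublets kept, 11 and 25 were. Over all genes 1505 were called higher and 1840 lower, and 2072 and 1134 with library totals.

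**Figure D3:**
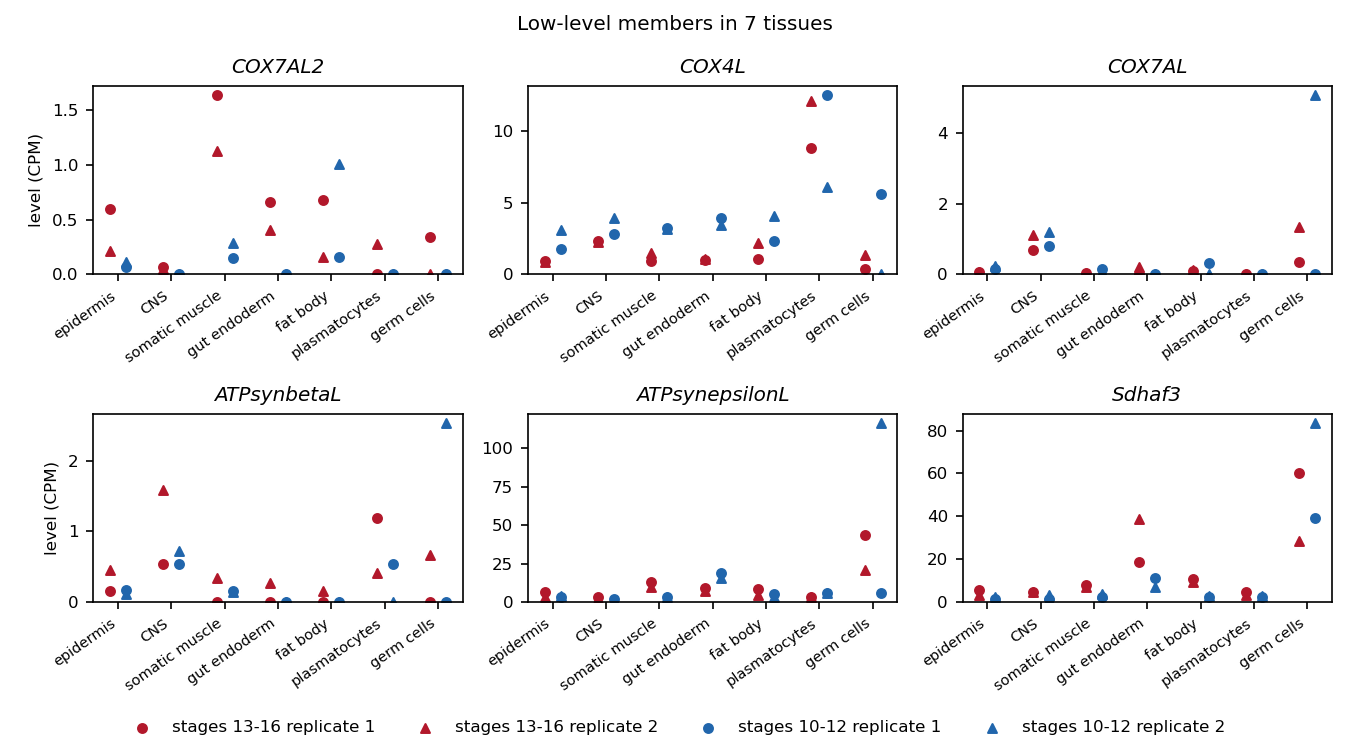
Level in CPM of 6 genes of low level in 7 tissues; red marks stages 13-16 and blue stages 10-12, circles replicate 1 and triangles replicate 2, and each panel has its own scale from 0. *COX4L* is highest in plasmatocytes (6.06 to 12.5 CPM), *Sdhaf3* in germ cells (28.6 to 83.7 CPM) except in stage 13-16 replicate 2, where gut endoderm is higher (38.7 CPM), and *COX7AL2* at stages 13-16 in somatic muscle (1.13 and 1.64 CPM).

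Copies and other genes of low level had some of the largest differences. *COX4L*, a copy of the complex IV subunit *COX4*, had 8.84 and 12.1 CPM in plasmatocytes of stages 13-16 and 12.5 and 6.06 CPM in those of stages 10-12, from 52, 88, 47 and 7 UMIs. In the remaining cells it had 1.27 and 1.43 CPM and 2.54 and 3.20 CPM, below plasmatocytes in each library (2.70 ± 0.30, adjusted p = 4.78e-07). Its parent *COX4* was not called in plasmatocytes. *Sdhaf3* had 60.2 and 28.6 CPM in germ cells of stages 13-16 and 39.3 and 83.7 CPM in those of stages 10-12, against 8.16 and 8.51 CPM and 3.24 and 3.99 CPM in the remaining cells (2.88 ± 0.28, adjusted p = 2.97e-22), and no value of the groups overlapped. *ATPsynepsilonL* had 43.7 and 20.6 CPM and 5.62 and 117 CPM, against 7.32 and 5.18 CPM and 4.85 and 5.56 CPM. It was called higher in germ cells (2.41 ± 0.32, adjusted p = 8.12e-13), though stage 10-12 replicate 1 stood near the level of the remaining cells.

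Below 2 CPM the calls rest on few molecules. *COX7AL* had 10 and 46 UMIs in the CNS of stages 13-16 and 15 and 10 in that of stages 10-12, which is 0.672 and 1.12 CPM and 0.795 and 1.19 CPM, against 0.137 and 0.190 CPM and 0.165 and 0.145 CPM in the remaining cells (2.56 ± 0.34, adjusted p = 0.00111). *ATPsynbetaL* had 8 and 65 UMIs and 10 and 6 UMIs in the CNS, which is 0.537 and 1.58 CPM and 0.530 and 0.715 CPM, against 0.146 and 0.380 CPM and 0.165 and 0.124 CPM (2.04 ± 0.35, adjusted p = 0.00316). Both copies were higher in the CNS within each library. *COX7AL* was called lower in somatic muscle, from 1 and 1 UMIs at stages 13-16 and 4 and 1 at stages 10-12. *COX7AL2* was called lower in the CNS, where it had 1 and 2 UMIs at stages 13-16 and 0 and 0 at stages 10-12. It was called higher in somatic muscle, with 40 and 43 UMIs at stages 13-16 and 4 and 4 at stages 10-12 (1.54 ± 0.43, adjusted p = 0.00532). *ND-B8* was called higher in germ cells from 6 and 3 UMIs at stages 13-16 and 0 and 3 at stages 10-12, and its difference was -1.87 without stage 10-12 replicate 2.

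The second question, how the chain at stages 13-16 differs from that at stages 10-12, was tested between libraries, 2 against 2, without a block. It was tried on simulated data, where 200 genes had a log2 change of 1 and all genes the same relative spread between libraries. There it recovered 0.5% of changed genes in all kept cells, 13% in somatic muscle, 20% in fat body and 0% in the CNS. The real fits called 21.2% of all genes in all kept cells and 15.4% in the CNS. The simulated recovery therefore does not carry over to them. Over all kept cells 77 nuclear genes were tested, 1 fell and none rose, against 9.58% of all genes called lower and 11.6% called higher, with a median of -0.19 beside 0.01. At an unadjusted p under 0.05, 3 were higher and 5 lower, and DESeq2 called 3 higher and 5 lower. The gene that fell was *ND-B17.2*, an accessory subunit of complex I, with 138 and 139 CPM at stages 13-16 against 200 and 197 CPM at stages 10-12 (-0.70 ± 0.18, adjusted p = 0.0468), and no fit that left out 1 library called it. No mitochondrial gene was called, none had an unadjusted p under 0.05 and DESeq2 called none. *mt:CoI* had 8310 and 5756 CPM at stages 13-16 against 3899 and 8973 CPM at stages 10-12 (-0.07 ± 0.56), with both extremes at stages 10-12. Without stage 10-12 replicate 2 the median of the set was 1.15. Over all genes 1393 were called higher and 1154 lower at stages 13-16, and 996 and 259 with library totals.

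Within tissues, most of the nuclear genes called between the stages were called in somatic muscle or fat body. In somatic muscle 19 of 68 tested nuclear genes rose at stages 13-16 and 1 fell, against 22.3% of all genes called higher and 14.6% called lower (36.9% in all), so that 19 in 68 is near the background; the median was 0.34 beside 0.07. In fat body 20 of 66 rose and none fell, against 20.5% of all genes called higher (median 0.46 beside 0.06). The counts depend on single libraries: in somatic muscle 3, 4, 0 and 28 rose without stage 10-12 replicate 1, stage 10-12 replicate 2, stage 13-16 replicate 1 and stage 13-16 replicate 2, and in fat body 4, 2, 20 and 28. In muscle without stage 13-16 replicate 1 no gene at all was called. With library totals in place of TMM 10 rose in muscle and 7 in fat body, against 16.3% and 15.7% of all genes called higher. Neither count is above that share. After thinning 13 rose in muscle and 1 in fat body.

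In muscle all 5 tested genes of complex II, succinate dehydrogenase, rose, against 22.3% of all genes called higher. These include the assembly factor *Sdhaf3*, a gene of low level. The other complexes had 6 of 33 (I), 2 of 6 (III), 1 of 11 (IV) and 5 of 13 (V). All of these counts carry the dependence on single libraries and on scaling given above. *SdhA* had 63.1 and 93.3 CPM in muscle of stages 13-16 against 28.9 and 24.6 CPM in that of stages 10-12 (1.59 ± 0.16, adjusted p = 0.00329). *SdhD* had 90.5 and 109 CPM against 60.4 and 50.5 CPM (0.90 ± 0.14, adjusted p = 0.00769). *SdhC* (0.86), *SdhB* (0.60) and *Sdhaf3* (1.46) rose as well. In fat body *Sdhaf3* had 10.9 and 9.21 CPM against 2.19 and 2.70 CPM (2.22 ± 0.41, adjusted p = 0.00659). *SdhA* was also called in fat body, with 57.3 and 82.1 CPM against 33.7 and 20.2 CPM (1.47 ± 0.25, adjusted p = 0.00461), and in epidermis, with 34.9 and 54.5 CPM against 24.5 and 18.7 CPM (1.11 ± 0.21, adjusted p = 0.0143).

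**Figure D4:**
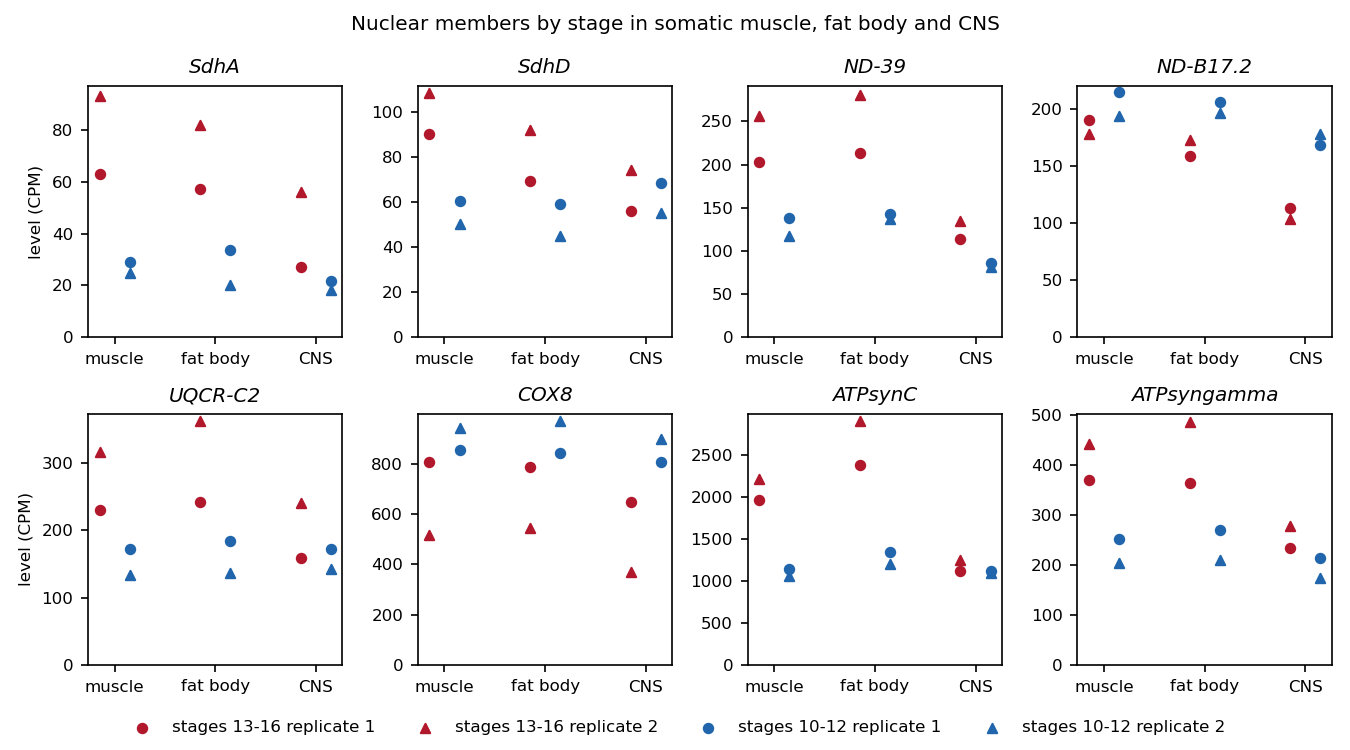
Level in CPM of 8 nuclear genes in somatic muscle, fat body and CNS, with stages 13-16 (red) left of stages 10-12 (blue); circles mark replicate 1, triangles replicate 2, and each panel has its own scale from 0. *SdhA* had 63.1 and 93.3 CPM in muscle of stages 13-16 against 28.9 and 24.6 CPM in that of stages 10-12, while *COX8* and *ND-B17.2* were not called in muscle or fat body.

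Subunits of other complexes that were called in both tissues include the c ring and rotor of the ATP synthase and the core proteins of complex III. *ATPsynC* had 1966 and 2213 CPM in muscle of stages 13-16 against 1142 and 1053 CPM in that of stages 10-12 (0.99 ± 0.22, adjusted p = 0.0193), and 2385 and 2898 CPM against 1345 and 1201 CPM in fat body (1.18 ± 0.21, adjusted p = 0.00597). *ATPsyngamma*, which forms the central shaft of the ATP synthase, had 369 and 442 CPM against 252 and 205 CPM in muscle (0.89 ± 0.16, adjusted p = 0.0122), and rose in fat body by 0.95. *UQCR-C1* and *UQCR-C2* rose by 0.83 and 0.89 in muscle and by 1.00 and 1.03 in fat body. *ND-39*, an accessory subunit of complex I that was picked after its values were seen, rose by 0.91 and 0.94. Of other subunits of complexes III and IV, *UQCR-14* (-0.10 and -0.09), *UQCR-Q* (-0.08 and -0.14), *COX5A* (0.03 and 0.06), *COX5B* (0.08 and 0.10), *COX7C* (0.15 and 0.00) and *COX8* (-0.34 and -0.30) were not called in muscle or in fat body. With 2 libraries per stage this does not show that they were level. *COX8* had 809 and 517 CPM in muscle of stages 13-16 against 854 and 943 CPM in that of stages 10-12 (SE 0.34), a spread between replicates that leaves changes in either direction possible.

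Among the low genes of muscle, *ATPsynepsilonL* had 13.0 and 9.74 CPM at stages 13-16 against 3.1 and 3.1 CPM at stages 10-12 (1.96 ± 0.33, adjusted p = 0.00951). *COX7AL2* rose by 2.83 from the few UMIs given above, and *COX4L* fell, with 0.944 and 1.50 CPM against 3.25 and 3.17 CPM (-1.35 ± 0.40, adjusted p = 0.0446).

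The other tissues gave few calls between the stages. In epidermis 1 of 66 nuclear genes rose, *SdhA*, and none fell, against 17.7% of all genes called higher and 10.9% called lower, while 18 fell without stage 13-16 replicate 1. In the CNS none of 68 was called, against 8.13% higher and 7.27% lower, with a median of -0.31 beside 0.00; at an unadjusted p under 0.05, 2 were higher and 12 lower, and DESeq2 called 2 higher and 4 lower. In gut endoderm none of 64 was called (background 2.72% higher and 1.06% lower, 3.77% in all, 1 at an unadjusted p under 0.05, none by DESeq2), and in plasmatocytes none of 65 (background 11.7% higher and 5.3% lower, 1 at an unadjusted p under 0.05, none by DESeq2). In germ cells none of 63 was called, none at an unadjusted p under 0.05 and none by DESeq2, and none of all 6434 genes tested was called there. Of the mitochondrial genes *mt:ND4L* was called in plasmatocytes, with 29.6 and 20.2 CPM at stages 13-16 against 9.05 and 12.1 CPM at stages 10-12 (1.42 ± 0.37, adjusted p = 0.0246), and no other was called by edgeR in any tissue. At an unadjusted p under 0.05, 3 mitochondrial genes were higher in gut endoderm, 2 in fat body, 3 in germ cells and none in epidermis, CNS or somatic muscle, and DESeq2 called 1 higher in gut endoderm, 1 in fat body and none elsewhere. Stage 10-12 replicate 2 was the library with the highest mitochondrial level of its stage. Without it the mitochondrial median between the stages was 1.57 in plasmatocytes, 1.45 in somatic muscle, 1.72 in fat body and 1.00 in epidermis. With all libraries it was 0.53, 0.22, 0.37 and -0.02. Without 1 library, the mitochondrial median of gut endoderm between the stages ranged from -0.66 to 1.58, so its direction turned. The nuclear median then ranged from -0.013 to 0.54 in gut endoderm and from 0.25 to 0.52 in fat body.

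The change of a tissue's lead over the remaining cells between the stages was tested in the tissue fits as an interaction. In somatic muscle 46 of 73 nuclear genes had a larger difference from the remaining cells at stages 13-16 than at stages 10-12, against 10.3% of all genes, and none had a smaller one, against 3.4%, with a median change of 0.60 beside 0.20. In fat body 57 of 72 did, against 15.4% of all genes (0.66 beside 0.33). The mitochondrial set of fat body lay below the remaining cells at both stages, with a median of -0.16 at stages 13-16 and -0.62 at stages 10-12, and for 5 of its 13 genes the change between the stages was called. The nuclear medians were, in muscle, 0.80 at stages 13-16 and 0.23 at stages 10-12, and in fat body 0.75 and 0.12. *ATPsynC* in fat body stood 1.19 above the remaining cells at stages 13-16 and 0.21 at stages 10-12 (adjusted p of the change 2.36e-05). *ATPsynepsilonL* in muscle stood 1.50 above the remaining cells at stages 13-16 and at -0.74, below them, at stages 10-12 (adjusted p of the change 0.000332). In muscle the interaction rested on the scaling and on single libraries: 4 genes were called with library totals, 1 after thinning, 4 with likely doublets kept, 0 in cells of at least 5000 UMIs, 25 by DESeq2, and 36, 1, 5 and 57 without stage 10-12 replicate 1, stage 10-12 replicate 2, stage 13-16 replicate 1 and stage 13-16 replicate 2. In fat body 16 were called with library totals, 0 after thinning, 5 with likely doublets kept, 30 in cells of at least 5000 UMIs, 38 by DESeq2, and 61, 0, 36 and 30 without those libraries. Gut endoderm had no call in the interaction (background 2.11% in all and 0.0828% lower), 48 at an unadjusted p under 0.05 and none by DESeq2, with medians of 1.48 at stages 13-16 and 0.63 at stages 10-12. Without Harmony's correction 59 nuclear genes of gut endoderm were called. No nuclear or mitochondrial gene was called in the interaction of epidermis (background 0.546% higher and 2.62% lower) or of the CNS (background 0.0176%, lower), where 2 and 15 nuclear genes and 8 and 0 mitochondrial genes were lower at an unadjusted p under 0.05, and DESeq2 called 0 and 1 nuclear genes and no mitochondrial one.

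Other mitochondrial genes from lists were read from the same fits. Of 72 tested proteins of the mitochondrial ribosome, which translates the 13 mitochondrial messages, 72 rose in somatic muscle, 72 in fat body and 71 in gut endoderm, with medians of 0.70, 0.70 and 1.22, against 30.6%, 26.8% and 13.2% of all genes called higher, while 69 fell in epidermis, 65 in the CNS and 56 in plasmatocytes, against 33.6%, 35.9% and 31.7% called lower. With library totals 62 rose in somatic muscle, 63 in fat body and 71 in gut endoderm, against 16.1%, 17.8% and 9.8% of all genes. In those other tissues 72, 71 and 67 fell, against 42.4%, 38.3% and 44.8% of all genes. Of 14 genes of the citric acid cycle, 12 rose in gut endoderm, 8 in somatic muscle and 8 in fat body, and 13 fell in epidermis. With library totals 8 rose in gut endoderm, 2 in somatic muscle, where 6 fell, and 7 in fat body, where 4 fell, and 13 fell in epidermis. Over all genes 51.7% were then called lower in somatic muscle and 45.8% in fat body, so the falls there are below that background. Of 10 tested genes that maintain and express mitochondrial DNA, 9 rose in somatic muscle and 9 in fat body, where the median was 0.75, and with library totals 6 and 8 did. The chain subunits outside the symbol rule gave 7 of 9 higher in each of gut endoderm, somatic muscle and fat body, and 7, 5 and 3 with library totals. Between the stages, 21 of 72 mitochondrial ribosomal proteins rose in muscle and 22 of 72 in fat body, against 22.3% and 20.5% of all genes called higher. With library totals 6 and 4 did, below the 16.3% and 15.7% of all genes then called higher. Of 14 citric acid cycle genes 9 rose in muscle and 8 in fat body, and 6 in each with library totals. The lists were chosen with earlier results of these data known and are given as counts.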

How the data were processed

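Whole embryos were profiled by droplet single-cell RNA-seq. The authors deposited UMI counts per gene and barcode for each library, made with Cell Ranger 6.1.2 as the file headers give it. They took the *Drosophila* genome from FlyBase. Their own tests took cells as replicates; here the library is the replicate, and nothing pairs the libraries beyond a number.

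A limit of 25% mitochondrial UMIs per barcode was set, which restricts the mitochondrial set directly. Each library was clustered on 30 components, and clusters marked by fewer than 50 genes and likely doublets were dropped. Kept cells of a stage were clustered on 2000 variable genes, without chain, mitochondrial or ribosomal protein genes. All principal components above the Marchenko-Pastur bound for a random matrix were used, after Harmony correction (igraph 0.11.9, 20 neighbors, resolution 2). Clusters were named from markers that come mostly from the study's own table, which was made on these samples, and the limits for naming were set after the clusters were seen. UMIs were summed per library and tissue (at least 20 cells) and tested with edgeR 4.0.16 (TMM, filterByExpr, quasi-likelihood, Benjamini-Hochberg over all genes tested, threshold 0.05) in R 4.3.3. In the tissue fits the library was a block. Python 3.11.15, numpy 2.4.6, scipy 1.17.1, pandas 2.3.3 and matplotlib 3.10.9 were used for the rest.

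Genes were named by role (core and well-known subunits of each complex), all mitochondrial genes, all copies, and in each comparison the 3 called genes with the largest positive and negative differences. The members and lists were chosen with earlier results of these data known. No genome sequence was used. Alternatives were DESeq2 1.42.0, no filter on low counts, doublets kept, a limit of 10% mitochondrial UMIs, cells thinned to 1000 UMIs, resolution 1, no Harmony correction, each library left out and a replicate block. Cells of at least 5000 UMIs and library totals in place of TMM were added after seeing the data. The fits were tested on simulated counts with 200 changed genes and the same relative spread for all genes, where at most 5.43% of calls were false. With 2 libraries per stage, the tests between stages weigh the stage difference against the spread between libraries. Stage and temperature cannot be told apart in them.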

Additional observations from a re-analysis of the deposited data

Results flagged for a closer look

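The difference of a tissue from the remaining cells itself differed between the stages, by the test of the difference itself in edgeR, for genes of 3 tissues. In somatic muscle 46 nuclear chain genes had a larger lead at stages 13-16 than at stages 10-12, and none a smaller one, against 10.3% and 3.4% of all genes. The count was 4 with library totals, 1 after thinning, 0 in cells of at least 5000 UMIs and 1 to 57 without 1 library. In fat body 57 nuclear genes did, against 15.4% of all genes, and the count was 16 with library totals, 0 after thinning, 30 in cells of at least 5000 UMIs and 0 to 61 without 1 library. For 5 mitochondrial genes of fat body, *mt:ND4*, *mt:ND5*, *mt:ND6*, *mt:CoII* and *mt:ATPase6*, the change was called, and they lay less far below the remaining cells at stages 13-16 or level with them. That count was 0 by DESeq2, with library totals, with likely doublets kept, after thinning, in cells of at least 5000 UMIs, without stage 10-12 replicate 2 and without stage 13-16 replicate 2. In plasmatocytes 1 nuclear gene, *ND-51*, which encodes the NADH-binding subunit of complex I (change 0.82), and 1 mitochondrial gene, *mt:ATPase8* (change 0.94), were called. The background was 7.53% of all genes in plasmatocytes. Both plasmatocyte counts were 0 by DESeq2 and with library totals. No group held 4 or more samples, so single libraries could not be checked as outliers.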

How the results depend on the processing

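Set medians were computed under 413 alternatives, of which 374 stayed within the replicate SD, 29 moved by more and 10 turned. For the mitochondrial set between the stages that SD was wide, 0.94 in all kept cells. Of 1196 counts of members under alternatives, 246 were further than 1.5 times from their value. With library totals in place of TMM, an alternative added after seeing the data, the nuclear median was -0.00747 between the stages in all kept cells, and against the remaining cells -0.43 in epidermis, 0.13 in somatic muscle, 0.16 in fat body, -0.26 in plasmatocytes and 0.094 in germ cells. The mitochondrial median was then 0.12 in epidermis, -0.38 in somatic muscle, -0.056 in gut endoderm, -0.68 in fat body and -0.12 in plasmatocytes. The genes that turned under it were, in somatic muscle, *ATPsynbeta* (-0.053), *ND-51* (-0.00722), *SdhA* (-0.054), *mt:ATPase8* (-0.28), *mt:ND1* (-0.00146), *mt:ND2* (-0.14), *mt:ND4* (-0.30) and *mt:ND4L* (-0.32). In fat body it was *SdhB* (-0.25), and in plasmatocytes *COX4* (-0.25), *COX8* (-0.24), *UQCR-14* (-0.26), *mt:CoII* (-0.12), *mt:CoIII* (-0.12), *mt:ND3* (-0.24) and *mt:ND6* (-0.28).

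With cells thinned to 1000 UMIs the nuclear median was 0.024 between the stages in plasmatocytes, and against the remaining cells -0.088 in the CNS, 0.28 in somatic muscle and 0.23 in fat body, while the mitochondrial median was 0.20 in epidermis, -0.14 in gut endoderm and -0.58 in fat body. *ATPsynepsilonL* turned in somatic muscle (-0.026), and *mt:CoI* (-0.31), *mt:CoIII* (-0.26) and *mt:Cyt-b* (-0.26) in gut endoderm. The mitochondrial median was 0.39 in epidermis at resolution 1 and 0.35 in gut endoderm with a limit of 10%, and the nuclear one -0.15 in plasmatocytes without a filter. With doublets kept, *mt:CoII* (-0.48), *mt:CoIII* (-0.55) and *mt:ND3* (-0.43) turned in germ cells. The cause was not tested.

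Without 1 library, the nuclear median between the stages ranged from -0.44 to 0.20 in epidermis, -0.65 to -0.10 in the CNS, -0.013 to 0.54 in gut endoderm, 0.25 to 0.52 in fat body, -0.36 to -0.026 in plasmatocytes, 0.12 to 0.49 in somatic muscle, -0.45 to 0.081 in germ cells and -0.34 to -0.064 in all kept cells. The mitochondrial median ranged from -0.53 to 1.15 in all kept cells, -0.57 to 1.00 in epidermis, -0.38 to 1.12 in the CNS, -0.38 to 1.45 in somatic muscle, -0.66 to 1.58 in gut endoderm, -0.29 to 1.72 in fat body and -0.041 to 1.57 in plasmatocytes. Against the remaining cells it ranged from 0.11 to 0.30 in gut endoderm, -0.59 to -0.41 in fat body, -0.59 to 0.38 in germ cells and -0.16 to 0.0052 in somatic muscle, and the nuclear one from 0.28 to 0.34 in fat body and -0.069 to -0.022 in plasmatocytes. The genes that turned were *ND-MNLL* between the stages in fat body (-2.28 to 1.08) and, in germ cells, *ND-B8* (-1.87 to 3.39), *mt:CoII* (-0.48 to 0.53) and *mt:CoIII* (-0.52 to 0.51).

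The replicate numbers do not pair libraries by any label, and the deviations of same-numbered libraries correlated at -0.32 over 12041 genes. With the replicate block, 12 nuclear genes rose in somatic muscle and 15 in fat body between the stages. Cells of at least 5000 UMIs gave no value for gut endoderm and germ cells, for want of such cells. Of 9741 values of single genes under alternatives, 27 turned. With 2 libraries per stage, changes below about the size of the spread between collections cannot be seen, and the mitochondrial set is limited by that spread and by the limit on mitochondrial UMIs.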

Other observations

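Cells that received no tissue name held the nuclear set at 18173 and 19223 CPM at stages 13-16 and at 26931 and 24607 CPM at stages 10-12. Barcodes left out for over 25% mitochondrial UMIs held it at 14266 and 14999 CPM at stages 13-16 and at 14910 and 14740 CPM at stages 10-12, with the mitochondrial set at 205742 and 149612 CPM and at 237953 and 218362 CPM.

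A pair of genes, chosen after their values were seen, differed between replicates more than between stages. *ND-AGGG*, an accessory subunit of complex I, had 163 and 51.1 CPM in stage 13-16 replicates 1 and 2, against 164 and 90.3 CPM in stage 10-12 replicates 1 and 2. *ND-MNLL* had 6.86 and 0.720 CPM at stages 13-16, against 7.42 and 3.43 CPM at stages 10-12. In both, replicate 1 was the higher library of each stage.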
